A study of Homo sapiens with 6 samples.

Results

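Direct target genes of the tumour suppressor p53 were followed in A549 cells after knockdown of the RNA helicase DDX17. The 10 genes were taken by symbol from the table of reads per gene: CDKN1A, MDM2, PERP, FAS, TNFRSF10B, BBC3, TP53I3, SESN1, FDXR and ZMAT3. They are 10 of 29476 genes listed, and all 10 were among the 15615 genes with enough reads to be tested. A549 is an established human lung adenocarcinoma line in which p53 is wild type. Polyadenylated RNA was sequenced from 6 libraries of this line, 3 from cells transfected with a nontargeting siRNA (siCtrl 1 to 3) and 3 from cells transfected with an siRNA against DDX17 (siDDX17 1 to 3). Cells of both groups were grown in the same serum-containing medium and transfected with the same lipid reagent, with no DNA-damaging agent named. The sample labels call the control a plasmid where the methods call it a nontargeting siRNA, and the harvest time is given for the RT-qPCR experiment (48 h) but not separately for sequencing. A single siRNA against DDX17 was used, so effects of DDX17 loss and other effects of that siRNA cannot be told apart in these libraries.

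p53 is a transcription factor that is held at a low level by the ubiquitin ligase MDM2 and accumulates when DNA is damaged or growth signals are abnormal. It binds a pair of short, nearly palindromic half-sites near its target genes and raises their transcription, and the products stop the cell cycle, trigger apoptosis, repair DNA, adjust redox metabolism and, through MDM2, limit p53 itself. DDX17 and its paralog DDX5 are DEAD-box RNA helicases that are known to act as coactivators of p53, which is the question the 10 genes address here. Each gene also responds to other transcription factors, so its RNA level is no direct reading of p53 activity.

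The start regions of the target genes were searched for the sequence p53 binds, because it is the feature the genes are expected to share. The motif was the pair of p53 consensus decamers with no spacer, 20 bases long, with up to 2 mismatches allowed, within 5000 bases of the start of the canonical transcript (GENCODE release 44, GRCh38). The motif is its own reverse complement, so 1 search covers both strands. Such a match lay near 8 of the 10 genes, whereas 22.9% of 15443 tested genes held one. Up to 1 mismatch was met near 2 of the 10 genes and near 2.05% of tested genes, and a match without mismatch near 1 of the 10 and near 0.168% of tested genes. CDKN1A and MDM2 each held 2 matches, and 1 match of each gene is given for 6 genes that cover arrest, feedback, death and RNA binding. The capitals mark the 4 core bases of each decamer, and each sequence is written 5′ to 3′ on the strand of its gene.
CDKN1A, chr6:36676449-36676468, plus strand, at -2256 bases from the start, 2 mismatches: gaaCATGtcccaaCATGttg
MDM2, chr12:68808923-68808942, plus strand, intron, 755 bases after the start, 2 mismatches: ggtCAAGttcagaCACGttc
PERP, chr6:138104070-138104089, minus strand, intron, 3339 bases after the start, 1 mismatch: aggCAAGctccagCTTGttc
FAS, chr10:88991309-88991328, plus strand, intron, 520 bases after the start, 2 mismatches: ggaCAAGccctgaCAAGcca
BBC3, chr19:47232568-47232587, minus strand, at -1379 bases from the start, 2 mismatches: gggTCTGcccaggCATGtcc
ZMAT3, chr3:179070188-179070207, minus strand, intron, 1611 bases after the start, 0 mismatches: aaaCAAGtccagaCATGcct

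The closest match to the consensus, near ZMAT3, and the next closest, near PERP, belonged to genes that behaved differently: ZMAT3 did not pass the test and PERP rose. TNFRSF10B held a match with 2 mismatches in an intron and TP53I3 one before its start. SESN1 and FDXR, with 3 mismatches at their best position, held none under this limit, which says only that these letters are not in this window. A match is a description of the sequence and no measurement of p53 binding.

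**Figure D1:**
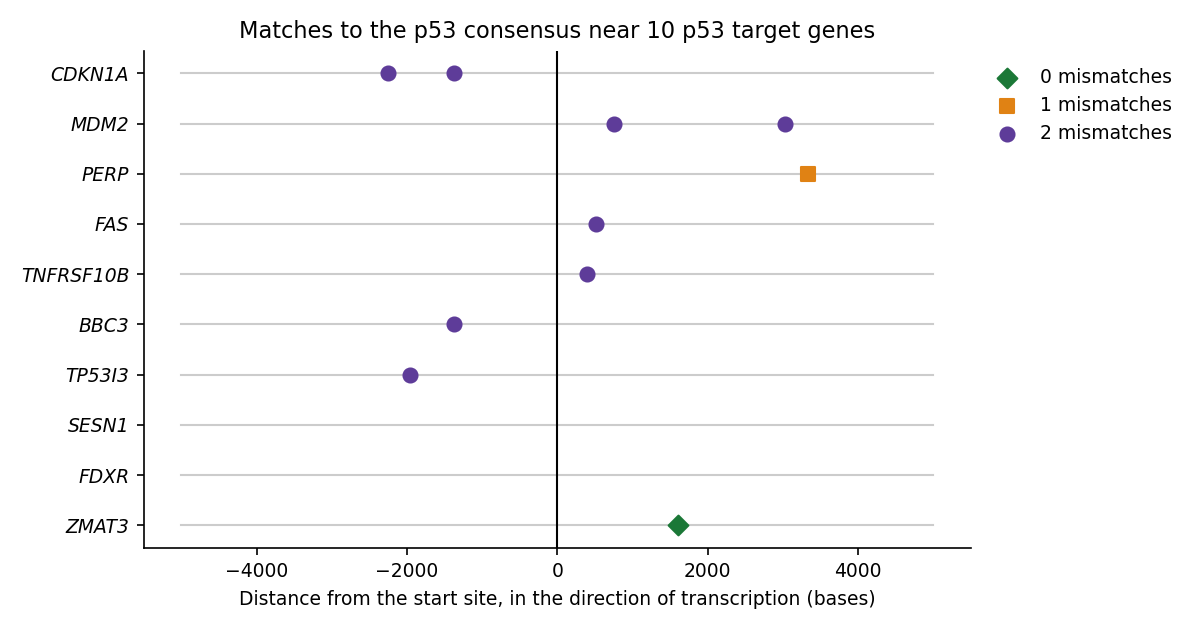
Distance in bases of each match to the 20-base p53 motif from the start of the gene's canonical transcript (x axis, negative values before the start), with 1 line per gene and a diamond, square or circle for 0, 1 or 2 mismatches. Matches lie both before the start (CDKN1A, BBC3, TP53I3) and after it (MDM2, PERP, FAS, TNFRSF10B, ZMAT3), and SESN1 and FDXR have none with up to 2 mismatches.

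The libraries held between 30658136 and 39182371 reads counted to genes. DDX17 itself was at 177, 184 and 206 CPM (the gene's reads scaled to a common library size, after edgeR's TMM correction) in siCtrl and at 32.1, 30.8 and 30.4 in siDDX17, and DDX5 passed no test, at 403 ± 20.0 and 373 ± 16.0 CPM (SD, n = 3 each, adjusted p = 0.142), although without siCtrl 1 its log2 fold change of -0.16 passed (adjusted p = 0.0043). The first principal component separated the groups, and siCtrl 1 stood apart from the other control libraries on the second. Mitochondrial transcripts took 12.9% to 14.1% of reads in siCtrl and 10.2% to 10.8% in siDDX17. The epithelial keratin genes KRT8 and KRT18 were highly expressed, whereas EPCAM was between 0.74 and 2.28 CPM and the lung markers SFTPB, SFTPC and NKX2-1 were close to 0. The endothelial markers summed to at most 0.413 CPM and the 5 fibroblast markers measured to at most 3.98 CPM, and the immune markers, mostly CD14, summed to 22.3 to 29.9 CPM in siCtrl and 30.4 to 30.8 in siDDX17. The part of CD14 and of the mitochondrial share in the results was not tested.

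The 10 p53 target genes did not move in 1 direction. Differences are given as log2 fold changes of siDDX17 over siCtrl with their standard errors, and a gene was called changed at a Benjamini-Hochberg adjusted p under 0.05 in edgeR's quasi-likelihood test over all 15615 tested genes. Of the 10 genes, 3 rose (PERP, FAS and BBC3) and 3 fell (CDKN1A, TNFRSF10B and SESN1), while MDM2, TP53I3, FDXR and ZMAT3 did not pass the test. Among all tested genes 24.5% were called higher and 24.3% lower, so the share of the 10 genes called in either direction, 6 of 10, stood beside 48.8% for the transcriptome. With a further limit of a 2-fold change, 1 gene was higher (PERP) and 1 lower (CDKN1A), beside 4.65% and 2.92% of all tested genes. The limits of the study's methods (p under 0.01 and a 1.5-fold change), applied to the test here, gave the same 2 genes. Of all tested genes, 1713 (11.0%) were higher and 1254 (8.03%) lower at these limits, more in each direction than the study itself reports. The groups did not overlap for 5 of the 10 genes, 2 higher and 3 lower, beside 56.5% of all tested genes, 28.8% higher and 27.7% lower. The median log2 fold change was -0.0020 over the 10 genes and 0.0051 over all tested genes. In a bulk sample, fewer cells of a kind and less RNA per cell cannot be told apart, and the p-values measure the spread among the 3 libraries of each group, which the study describes as biological replicates.

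**Figure D2:**
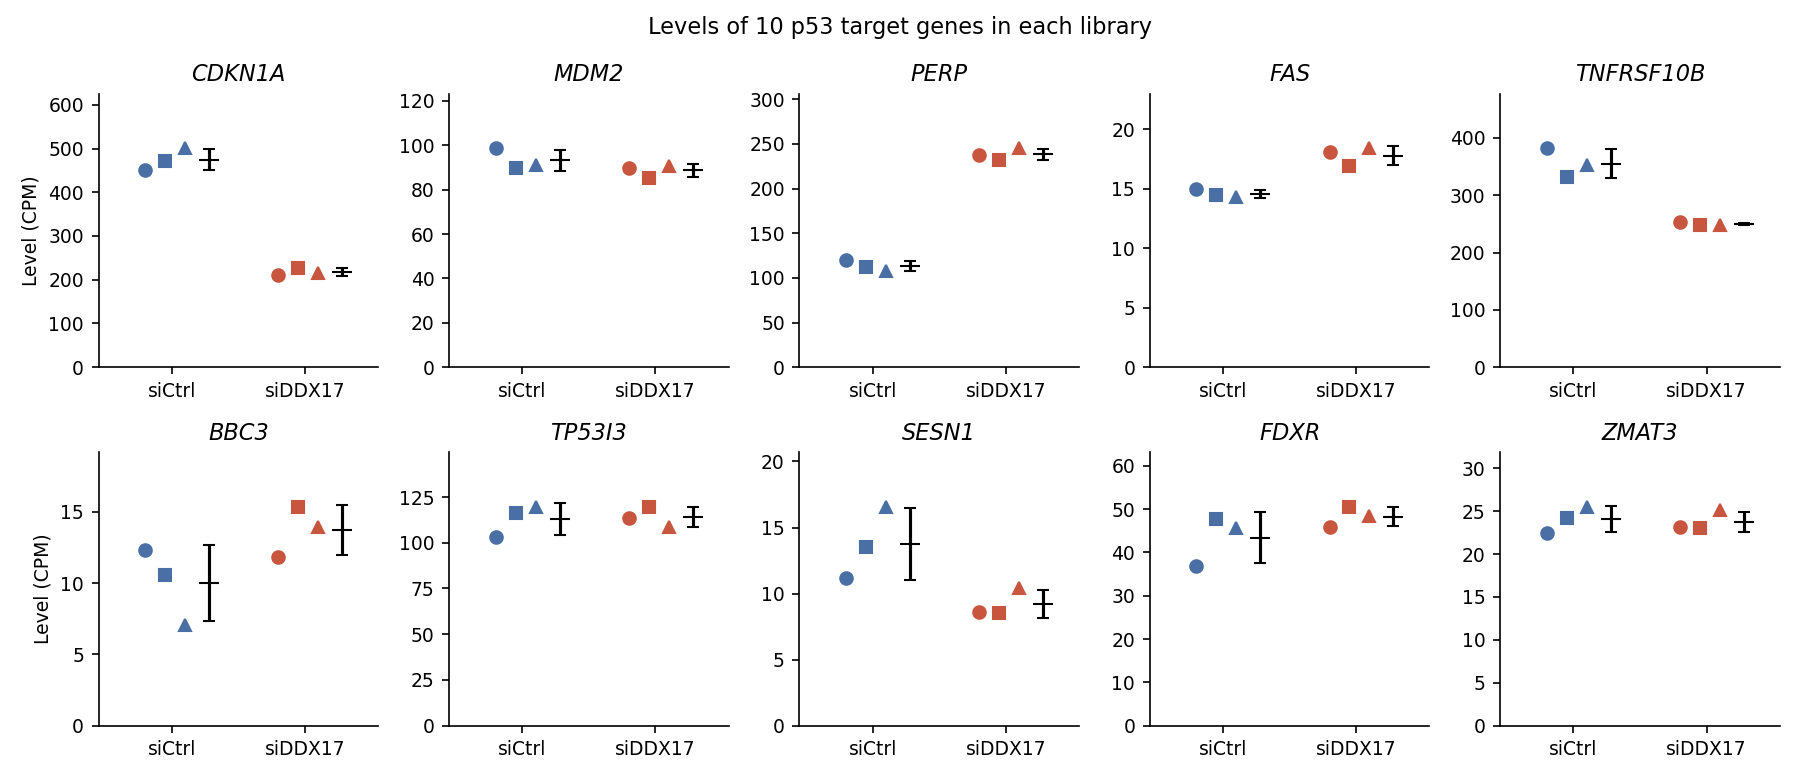
CPM on TMM-scaled library sizes (y axis, from 0, 1 panel per gene) of the 10 p53 target genes in the 3 siCtrl (blue) and 3 siDDX17 (red) libraries, with a circle, a square and a triangle for replicates 1, 2 and 3 and black bars for the mean ± SD of each group. CDKN1A, TNFRSF10B and SESN1 lie lower and PERP and FAS higher in every siDDX17 library than in any siCtrl library, and the points of the other 5 genes overlap.

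Compared per length of transcript, as FPKM (fragments scaled to gene length and library size, as the authors deposited them), CDKN1A was the most abundant of the 10 in both groups. In siCtrl the order was CDKN1A (173 ± 8.43 FPKM, SD, n = 3), TNFRSF10B (78.5 ± 7.42), TP53I3 (50.8 ± 3.22), PERP (24.2 ± 1.65), FDXR (16.8 ± 1.94), MDM2 (6.72 ± 0.484), FAS (4.93 ± 0.204), BBC3 (4.38 ± 1.22), SESN1 (3.19 ± 0.610) and ZMAT3 (2.31 ± 0.135). The library ranges of neighbours in that order overlapped only for FAS with BBC3 and for BBC3 with SESN1. In siDDX17, PERP stood at 55.6 ± 2.18 FPKM, in the range of TP53I3 (56.1 ± 2.02), and the ranges of MDM2 with FAS, FAS with BBC3 and ZMAT3 with SESN1 overlapped too.

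CDKN1A encodes p21, the inhibitor of cyclin-dependent kinases through which p53 stops the cell cycle, and was the member that fell furthest. The gene lies at chr6:36676460-36687337 on the plus strand and has 3 exons in its canonical transcript. The control libraries held 452, 472 and 501 CPM of CDKN1A, and siDDX17 1, 2 and 3 held 210, 228 and 216 CPM. Every siDDX17 library was thus below every control library. The log2 fold change was -1.12 ± 0.0600 (SE, 95% interval -1.25 to -0.99, adjusted p = 1.26e-08), and the mean CPM fell by 54.1%. Only 2.17% of tested genes had a lower log2 fold change. With 8098 to 18761 reads per library, counting error was small, and over the 16 alternative analyses the value lay between -1.17 and -0.99 and passed in all 16.

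The proteins that p21 acts on fell with it at the RNA level. The 7 partners of p21 considered were the kinases CDK2, CDK4 and CDK6, the cyclins CCND1, CCNE1 and CCNE2, and the replication clamp PCNA. All 7 were called lower, beside 24.3% of all tested genes. Like the other gene lists here, this list was chosen with earlier results of these data known, so its count is no independent test. CDK2, CDK4, CCND1, CCNE1 and PCNA were named with their values known. CDK6 was at 22.4, 21.1 and 20.0 CPM in siCtrl and 9.76, 8.39 and 8.51 CPM in siDDX17 (log2 fold change -1.25 ± 0.0874, adjusted p = 1.22e-07). CDK2 fell from 33.4 ± 0.386 to 17.5 ± 0.754 CPM (SD, log2 fold change -0.93) and CCND1, cyclin D1, from 666 ± 13.6 to 367 ± 3.91 CPM (-0.86). CCNE2 (-1.08), CCNE1 (-0.80), CDK4 (-0.39) and PCNA (-0.33) fell as well, CCNE2 from a low level of 3.08 CPM. The median over the 7 genes was -0.86, beside 0.0051 over all tested genes.

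Genes that the RB and DREAM complexes repress, the route by which p21 is known to silence the cell cycle, were counted beside CDKN1A. A lower p21 level is known to relieve this repression, and the genes are also high in dividing cells in general. Of 28 such genes, 25 were called lower and 0 higher by edgeR's quasi-likelihood test, and DESeq2 gave 25 and 0 as well, beside 24.3% lower and 24.5% higher over all tested genes in edgeR's test. In S phase genes 10 of 12 fell and in G2 and M genes 15 of 16, and the median log2 fold change of the 28 was -0.62. CDK1, the kinase that drives mitosis, was at 55.7, 58.7 and 58.9 CPM in siCtrl and at 27.4, 23.7 and 22.9 CPM in siDDX17 (-1.23 ± 0.0733, adjusted p = 3.19e-08). CDC6, which loads the replicative helicase, fell by 0.96 and the mitotic kinase AURKB by 0.89 on the log2 scale. CDKN1A RNA and these cycle genes thus fell in the same libraries. The list of cycle genes, too, was chosen with earlier results of these data known.

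MDM2 (chr12:68808177-68845544, plus strand), the ubiquitin ligase that marks p53 for degradation and is itself a p53 target, showed no difference beyond the spread of the libraries. It was at 98.7, 89.7 and 91.3 CPM in siCtrl and at 90.0, 85.5 and 90.6 CPM in siDDX17. The ranges overlap, and the log2 fold change of -0.07 ± 0.0581 did not pass (adjusted p = 0.323), with a 95% interval of -0.20 to 0.05. Its sign depended on scaling: with library size only, which moves the median of all tested genes from 0.0051 to 0.13, the value was 0.05 and also did not pass. Of the other feedback genes, the p53 ubiquitin ligase COP1 (listed under its older symbol RFWD2) fell from 30.4 ± 1.40 to 20.7 ± 0.977 CPM (log2 fold change -0.56, adjusted p = 2.59e-05) and PPM1D, a phosphatase that switches p53 off, fell by 0.27 on the log2 scale (adjusted p = 0.0172). The call of PPM1D was lost without siCtrl 2 (adjusted p = 0.0563), siDDX17 1 (0.064) or siDDX17 2 (0.056), with library size only (-0.15, adjusted p = 0.191) and in limma's fits to FPKM (-0.10 to -0.13, adjusted p = 0.257 to 0.36). CCNG1, cyclin G1, which helps MDM2 to restrain p53, rose by 0.22 (adjusted p = 0.00465).

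Among 22 tested genes that act on p53 (a relative, ubiquitin control, damage kinases and cofactors), 4 rose and 8 fell, beside 24.5% and 24.3% of all tested genes, with a median log2 fold change of -0.13. ATM, the kinase that answers to double-strand breaks, was at 7.80, 5.91 and 5.90 CPM in siCtrl and at 11.4, 9.24 and 9.92 CPM in siDDX17 (0.64 ± 0.125, adjusted p = 0.00088). HIPK2, a kinase that phosphorylates p53 for apoptosis, rose by 0.41, and the p53 relative TP63 rose by 0.78 from 0.672 ± 0.138 to 1.17 ± 0.126 CPM, a low level at which leaving out siCtrl 2 (adjusted p = 0.0642) or siDDX17 2 (0.0639) ended the call. RPL11, a ribosomal protein that can bind and inhibit MDM2, rose from 728 ± 99.2 to 996 ± 10.7 CPM (0.45 ± 0.0822, adjusted p = 0.000512). RPL5, the other ribosomal protein in the list, was at 1140 ± 95.6 and 1113 ± 42.6 CPM and did not pass (-0.03, adjusted p = 0.701). Without siCtrl 1, RPL5 was at -0.11 and passed (adjusted p = 0.0416). CHEK2, the checkpoint kinase downstream of ATM, fell by 0.69 on the log2 scale (adjusted p = 7.4e-05). Of 11 cofactors 5 fell and 0 rose, among them the acetyltransferase EP300 at -0.36, which was at -0.24 with library size only as scaling and at -0.15 to -0.21 in limma's fits to FPKM and did not pass there (adjusted p = 0.0858 and 0.188 to 0.332). SIRT1, a deacetylase of p53, was called at -0.44, but without siCtrl 1 the value was -0.20 and did not pass (adjusted p = 0.0832), nor did it pass without siDDX17 2 (0.133) or siDDX17 3 (0.0724), with library size only (-0.32, adjusted p = 0.139) or in limma's fits (-0.21 to -0.27). With library size only as scaling, 6 regulators rose and 4 fell.

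The 4 death genes were all called, 3 higher and 1 lower, beside 24.5% higher and 24.3% lower of all tested genes. PERP, a desmosome-associated membrane protein that mediates p53-dependent apoptosis, had the largest rise of the 10 genes. It was at 120, 112 and 108 CPM in siCtrl and at 237, 232 and 245 CPM in siDDX17, 2.10 times the control level. The siDDX17 libraries differed from each other by far less than the groups did, and the log2 fold change was 1.07 ± 0.0581 (95% interval 0.95 to 1.20, adjusted p = 1.43e-08). Of all tested genes 96.0% had a lower value, and over the 16 alternatives it stayed between 1.04 and 1.20 and passed in each. The gene lies at chr6:138088505-138107419 on the minus strand.

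The 2 death receptors among the 10 genes moved in opposite directions. FAS (chr10:88953813-89029605, plus strand), the receptor of FAS ligand, was at 14.9, 14.5 and 14.3 CPM in siCtrl and 18.1, 16.9 and 18.4 CPM in siDDX17. The groups did not overlap, but the rise was modest at 0.29 ± 0.0747 (log2, 95% interval 0.13 to 0.45, adjusted p = 0.00605). Exons of FAS share 387 bases with ACTA2 on the opposite strand and 166 with STAMBPL1. These neighbours reached 1032 and 957 reads in a library, and FAS had 414 to 709. A further 1899 bases are shared with an opposite-strand noncoding RNA that was not among the genes counted. The use of strand in counting is not given, and the part of these neighbours in the FAS value was not tested. TNFRSF10B, a receptor of the death ligand TRAIL, was at 382, 331 and 352 CPM in siCtrl and at 253, 249 and 249 CPM in siDDX17, so that every siDDX17 library was lower. Its log2 fold change was -0.51 ± 0.0610 (95% interval -0.64 to -0.37, adjusted p = 1.63e-05), and the mean CPM fell by 29.6%.

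The other TRAIL receptors were called lower too, of which TNFRSF10A and TNFRSF10D lost the call under other scalings. TNFRSF10A, the other signalling receptor, was at 41.8, 38.8 and 36.9 CPM in siCtrl and 32.6, 32.9 and 33.7 CPM in siDDX17 (log2 fold change -0.24 ± 0.0652, adjusted p = 0.00739). The decoy receptor TNFRSF10C fell from 8.56 ± 0.639 to 5.87 ± 0.506 CPM (-0.55 ± 0.107). The decoy receptor TNFRSF10D passed more narrowly at -0.29 ± 0.101 (adjusted p = 0.0307), with 99.6 CPM in siCtrl 1 below all siDDX17 libraries, and the call was lost without any 1 of the other 5 libraries (-0.16 without siCtrl 3, adjusted p = 0.146). Downstream of the receptors, the adaptor FADD rose by 0.34 and the initiator caspase CASP8 by 0.18 (adjusted p = 0.0403, lost without siCtrl 2 at 0.16, siCtrl 3 at 0.109, siDDX17 1 at 0.14 or siDDX17 3 at 0.129), whereas CFLAR, which blocks CASP8, fell by 0.23 on the log2 scale. TNFRSF10A was at -0.12 (adjusted p = 0.183) and CFLAR at -0.10 (adjusted p = 0.158) with library size only as scaling, and neither passed there or in limma's fits to FPKM, at -0.10 to -0.11 and at -0.0693 to -0.095. TNFRSF10D did not pass with library size only (-0.16, adjusted p = 0.189), with upper quartile scaling (adjusted p = 0.0523) or in limma's fits, and CASP8 did not pass in DESeq2 (adjusted p = 0.0672) or without a filter on low counts (adjusted p = 0.073). TNFRSF10A, TNFRSF10C, TNFRSF10D and CFLAR were named with their values known.

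BBC3 (chr19:47220822-47232766, minus strand), which encodes the BCL2-binding death protein PUMA, was called higher on weaker evidence than the other death genes. BBC3 was at 12.3, 10.6 and 7.07 CPM in siCtrl and 11.8, 15.4 and 14.0 CPM in siDDX17, and siDDX17 1 lay below siCtrl 1. The log2 fold change was 0.46 ± 0.161 (95% interval 0.12 to 0.81, adjusted p = 0.0292), from 265 to 560 reads per library. Without siCtrl 3, the lowest control, the value was 0.25 and did not pass (adjusted p = 0.0932), and the call was lost too without siDDX17 2 (0.37, adjusted p = 0.146) or siDDX17 3 (0.45, adjusted p = 0.0827). Without siCtrl 1 it was 0.65 and passed. On log2(FPKM + 1) without a filter it was 0.51 and did not pass (adjusted p = 0.101).

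The BCL2 proteins that PUMA meets at the mitochondrion moved unequally. MCL1, a survival protein that PUMA binds, was at 255, 271 and 289 CPM in siCtrl and 110, 103 and 106 CPM in siDDX17 (-1.36 ± 0.0615, adjusted p = 3.01e-09). The survival gene BCL2L1 rose by 0.17 (adjusted p = 0.0191, lost without siDDX17 1 at 0.0663 or siDDX17 2 at 0.0714) and the pore-forming BAK1 fell by 0.64 on the log2 scale (adjusted p = 1.49e-05). BAX, the other pore-forming protein and itself a p53 target, was at 234, 241 and 233 CPM in siCtrl and 202, 213 and 205 CPM in siDDX17 (-0.19 ± 0.0529, adjusted p = 0.0079). With library size only as scaling BAX was at -0.072 and did not pass (adjusted p = 0.228), nor did it in limma's fits to FPKM (-0.0659 to -0.0663). Of the 22 tested partners of CDKN1A, the death receptors, BBC3, FDXR and SESN1, 4 rose and 11 fell, beside 24.5% and 24.3% of all tested genes, with a median log2 fold change of -0.16. Without siDDX17 1, 2 partners rose, since the calls of CASP8 and BCL2L1 were lost.

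Of the 3 redox and metabolism genes, 1 fell and 2 did not pass, beside 24.3% of all tested genes called lower. SESN1 (chr6:108984309-109094846, minus strand), a sestrin that restrains mTORC1 through the GATOR2 complex, was at 11.2, 13.5 and 16.6 CPM in siCtrl and at 8.59, 8.56 and 10.4 CPM in siDDX17. The highest siDDX17 library lay just under the lowest control. The log2 fold change was -0.58 ± 0.132 (95% interval -0.87 to -0.30, adjusted p = 0.0025), and the mean CPM fell by 33.2%. On log2(FPKM + 1) without a filter it was -0.32 and did not pass (adjusted p = 0.125). Its relatives split: SESN3 rose from 5.96 ± 0.547 to 9.52 ± 0.356 CPM (0.67, adjusted p = 0.00011), and SESN2 was called lower at -1.19 (adjusted p = 0.00869). SEH1L, a GATOR2 subunit, fell by 0.49 on the log2 scale. Of the 5 tested partners of SESN1, 1 rose (SESN3) and 1 fell (SEH1L), beside 24.5% and 24.3% of all tested genes. The other 3, all GATOR2 subunits, did not pass.

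The value of SESN2 rested largely on siCtrl 1. It was at 67.1, 32.3 and 17.3 CPM in siCtrl and at 16.5, 18.7 and 16.0 CPM in siDDX17, so that siDDX17 2 exceeded siCtrl 3. Without siCtrl 1 the log2 fold change was -0.53 (adjusted p = 0.000383). With all 6 libraries the call was lost in DESeq2 (adjusted p = 0.0625) and in limma's fits to FPKM (-0.75 to -0.84, adjusted p = 0.114 to 0.296). The control libraries thus differed from each other by more than siCtrl 3 differed from any siDDX17 library.

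TP53I3 (chr2:24077433-24085861, minus strand), an NADPH-dependent quinone reductase linked to oxidative stress in p53-driven apoptosis, was at 103, 116 and 120 CPM in siCtrl and 114, 120 and 109 CPM in siDDX17. The groups overlap, and the difference of 0.01 ± 0.0660 had a 95% interval of -0.13 to 0.16 (adjusted p = 0.878). FDXR (chr17:74862497-74873031, minus strand), the mitochondrial reductase that passes electrons to ferredoxin, was at 36.8, 47.7 and 45.7 CPM in siCtrl and 46.0, 50.6 and 48.3 CPM in siDDX17. siCtrl 1 was the low sample, and the log2 fold change of 0.15 ± 0.0859 (95% interval -0.03 to 0.34, adjusted p = 0.158) became 0.04 without it. With library size only as scaling FDXR passed, at 0.28 (adjusted p = 0.0116), as it did in limma's fits to log2(FPKM + 1) (0.27, adjusted p = 0.0221) and log2(FPKM + 0.1) (0.29, adjusted p = 0.0207). Its ferredoxin partner FDX1 was at 18.0 ± 1.10 and 20.5 ± 0.555 CPM (0.18, adjusted p = 0.059) and passed with library size only (0.30, adjusted p = 0.00554), among other settings.

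ZMAT3 (chr3:178960121-179072215, minus strand), a zinc finger RNA-binding protein that regulates splicing and messenger stability under p53, gave the smallest difference relative to its spread after TP53I3. It was at 22.4, 24.2 and 25.5 CPM in siCtrl and 23.2, 23.0 and 25.1 CPM in siDDX17. All siDDX17 values fall within the control range, and the log2 fold change of -0.02 ± 0.0744 had a 95% interval of -0.18 to 0.14 (adjusted p = 0.862). For MDM2, TP53I3 and ZMAT3 none of the 16 alternatives gave a call.

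The wider set of known p53 targets, 45 genes besides the 10, showed both directions as well, with more genes lower than higher. Of the 43 tested, 6 rose and 22 fell, beside 24.5% and 24.3% of all tested genes, and the median log2 fold change was -0.18. With library size only as scaling 8 rose and 14 fell. Of 10 arrest and growth genes 1 rose and 6 fell, and of 13 death and survival genes 1 rose and 9 fell. Of 3 secreted targets 1 rose and 1 fell.

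**Figure D3:**
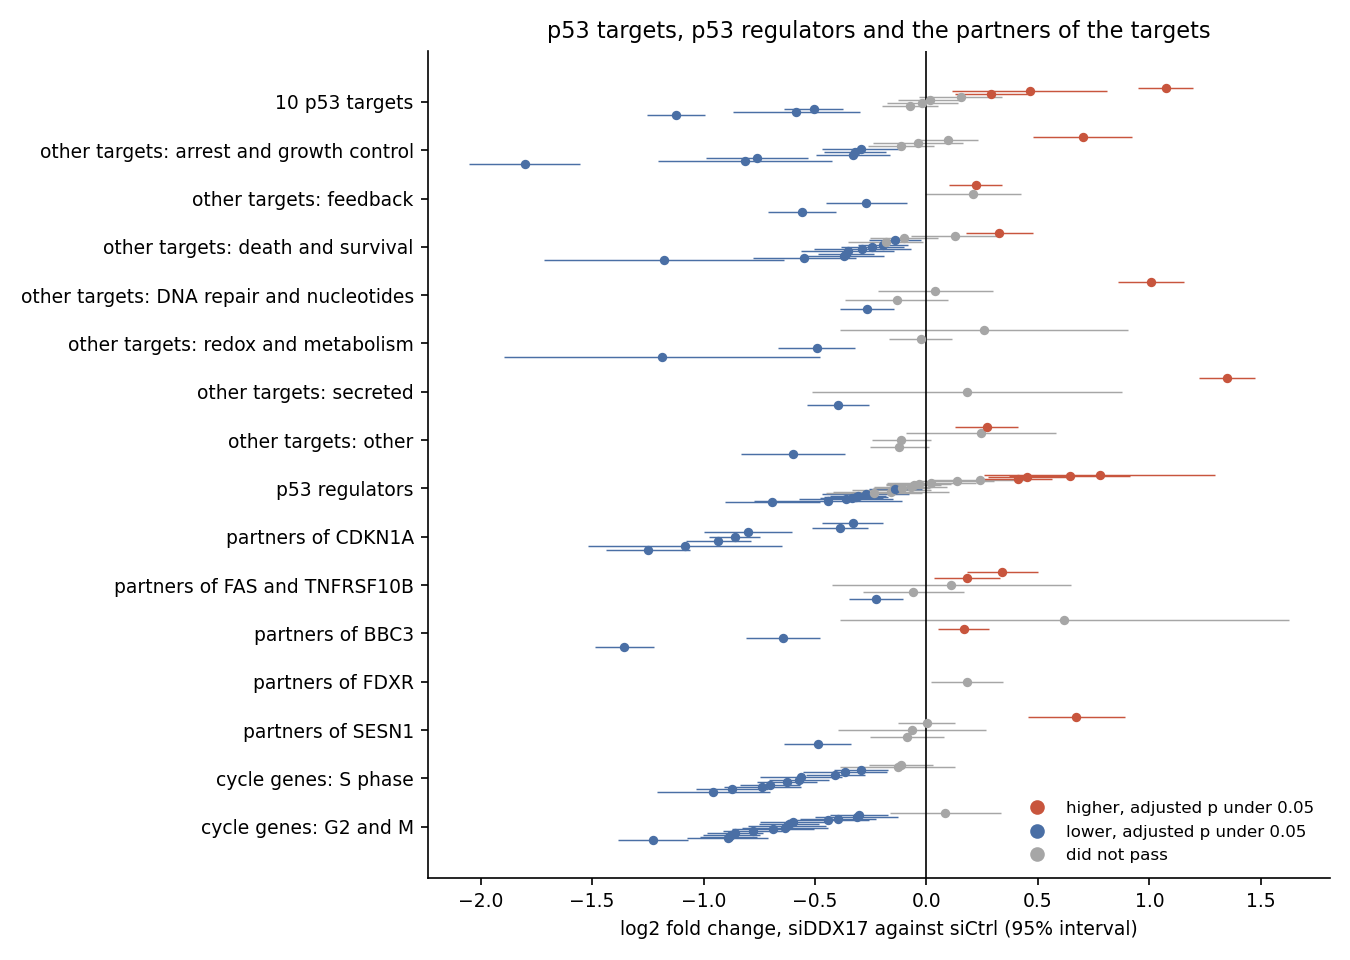
Log2 fold change of siDDX17 over siCtrl (x axis) of each tested gene among the p53 targets, p53 regulators, partners of the targets and cycle genes, 1 point per gene with its 95% interval, in red (higher) or blue (lower) at an adjusted p under 0.05 and in grey otherwise. The 10 p53 target genes lie on both sides of 0, and 25 of the 28 cycle genes are called on the negative side.

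IGFBP3, a secreted binding protein of insulin-like growth factors, had the largest rise among these other targets, with 273, 258 and 272 CPM in the control libraries against 715, 681 and 649 CPM after knockdown (log2 fold change 1.35 ± 0.0587, adjusted p = 2.38e-09). XPC, the damage sensor of nucleotide excision repair, was at 17.4, 17.8 and 19.1 CPM and at 35.4, 36.1 and 37.7 CPM (1.01 ± 0.0686, adjusted p = 9.72e-08). The antiproliferative gene BTG2 rose by 0.70. Like PERP and FAS, these genes were higher in every siDDX17 library than in any siCtrl library, as were 28.8% of all tested genes. DDB2, the partner of XPC in lesion recognition, fell by 0.27 on the log2 scale (adjusted p = 0.00159). Of the 4 repair and nucleotide genes tested, 1 rose, 1 fell and 2 did not pass, beside 24.5% higher and 24.3% lower of all tested genes.

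Among targets that fell, GDF15, a secreted stress cytokine, was lowest at -1.80 ± 0.115. PMAIP1, which encodes the BCL2-binding protein NOXA, was at 17.8, 10.1 and 7.05 CPM in siCtrl and at 5.24, 5.29 and 4.88 CPM in siDDX17 (-1.18 ± 0.249, adjusted p = 0.00153). GADD45A, a growth arrest gene, was at 68.3, 40.9 and 34.4 CPM and at 27.6, 27.6 and 26.5 CPM (-0.81 ± 0.181, adjusted p = 0.00215). In both genes siCtrl 1 was the highest control, and without it PMAIP1 was at -0.73 and GADD45A at -0.47, both still called. On log2(FPKM + 1) without a filter neither passed (PMAIP1 adjusted p = 0.116, GADD45A adjusted p = 0.155). NOXA and PUMA, both of the BH3-only class, were thus called in opposite directions. The lysosomal fucosidase FUCA1 (-0.49), the cytokine LIF (-0.40) and ANKRA2 (-0.60) fell, and the carboxylesterase CES2 rose by 0.27.

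The calls of the 10 p53 target genes did not rest on siCtrl 1. Without it, the same 3 genes rose (PERP 1.10, FAS 0.30, BBC3 0.65) and the same 3 fell (CDKN1A -1.17, TNFRSF10B -0.46, SESN1 -0.73), beside 26.4% and 27.0% of all tested genes and 53.3% in either direction. Of the other 43 targets 7 rose and 26 fell without it.

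**Figure D4:**
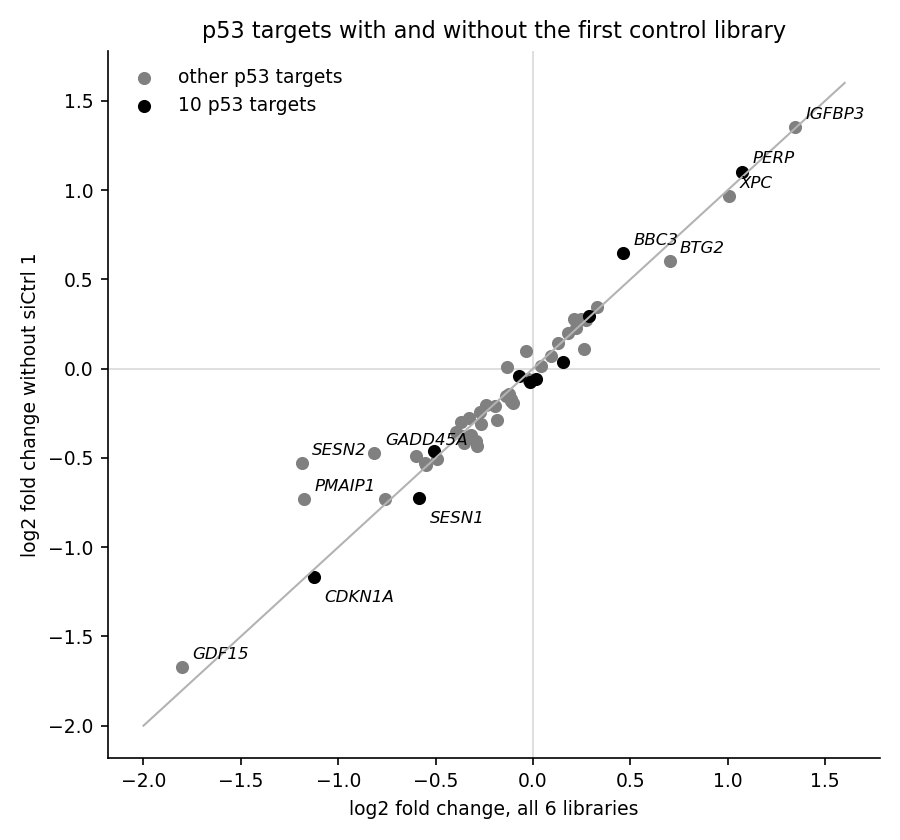
Log2 fold change of siDDX17 over siCtrl with all 6 libraries (x axis) against the value without siCtrl 1 (y axis) for the 10 p53 target genes (black) and the 43 other tested p53 targets (grey), 1 point per gene, with the line of equal values. CDKN1A and PERP lie near the line, and SESN2, PMAIP1 and GADD45A lie above it, at -0.53, -0.73 and -0.47 without siCtrl 1.

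Matches to the seed of each siRNA strand (the 7 bases that read from position 2 to 8) were counted in the 3′ UTRs of canonical transcripts, since an siRNA can lower other RNAs through its seed. The word of the DDX17 siRNA antisense strand occurred in 14.5% of 12987 tested genes and, of the 10 p53 targets, in ZMAT3. The word of its sense strand occurred in 10.5% of tested genes and in MDM2, PERP and ZMAT3. The 3 genes that fell, CDKN1A, TNFRSF10B and SESN1, held neither word in the 3′ UTR of the canonical transcript. Other genes that fell did hold one: the antisense word occurred 3 times in CDK6, 2 times in CDK2 and 1 time each in PMAIP1, CFLAR and TNFRSF10D, and the sense word 1 time each in MCL1, CCND1, PMAIP1 and CFLAR. Genes that rose held them too: the antisense word occurred 1 time each in BTG2, CCNG1 and CASP8, and the sense word 2 times in ATM. Over the 12987 genes, the median log2 fold change was -0.027 with the antisense word and -7.1e-05 without it. For the sense word the medians were -0.0049 and -0.0045. None of the 10 genes held a word of the control siRNA. The median was 0.029 with its antisense word and -0.0052 without it. With its sense word, in 277 genes, the median was 0.23, and -0.0087 without it. The part of these words in the changes was not tested in single genes.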

How the data were processed

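After trimming, the authors aligned reads with TopHat2 (up to 4 mismatches) on GRCh38 and deposited counts of uniquely mapped reads per gene and FPKM values for the 6 libraries. The counting program, the annotation release and the use of strand are not given in the sources used here. Genes were tested with edgeR 4.0.16 in R 4.3.3 on the deposited counts, with TMM scaling, filterByExpr (15615 of 29476 genes kept), glmQLFit and glmQLFTest, and Benjamini-Hochberg adjustment over all tested genes. The quasi-likelihood test, tested on simulated counts of 15428 genes, called 198 of 200 changed genes and 12 unchanged ones. These counts had the same dispersion for every gene, changes of 2-fold or more and no library that stood apart. They do not show how well smaller changes, or genes with a wide spread such as SESN2, are called. Alternatives were DESeq2 1.42.0, RLE, upper quartile and library size scaling, no filter, at least 10 reads in every library, limma 3.58.1 on log2(FPKM + 1) and log2(FPKM + 0.1), a replicate block, and each library left out. The FPKM fold changes are on these log scales, on which the added constant shrinks changes of low genes. Neither the FPKM fits nor the library size setting had TMM scaling, so these settings are not independent of each other. FAS was at 0.35 on log2(FPKM + 1) and at 0.29 in the main test. An exact permutation test of 3 against 3 libraries cannot go below p = 0.1 and was not used.

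The 10 genes and the lists of other targets, regulators, partners and cycle genes were chosen with earlier results of these data known. Named genes were the 10, DDX17, DDX5, and per list the 3 called genes with the largest change in each direction at a mean of at least 1 CPM. The rule also takes all genes of roles with 5 or fewer genes, of which those not called are given by count or left out, apart from FDX1. CDK2, CDK4, CCND1, CCNE1, PCNA, GADD45A, TNFRSF10A, TNFRSF10C, TNFRSF10D, BAX, CFLAR, FDX1 and RPL5 were added after their values were seen. Some genes of the lists are not reported here. COP1 and 1 other gene were matched by identifier. Motifs and positions were taken from GENCODE release 44 on GRCh38.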

Additional observations from a re-analysis of the deposited data

How the results depend on the processing

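Over 16 alternatives, CDKN1A, PERP, FAS and TNFRSF10B kept their direction and call, and BBC3, SESN1 and FDXR changed call in 4, 1 and 3 of them. Directions turned only in values that were not called. MDM2 was at 0.0493 with library size only, and at 0.0490, 0.0555 and 0.0490 with limma on log2(FPKM + 1), on log2(FPKM + 0.1) and without a filter. ZMAT3 was at 0.0126 with upper quartile scaling, 0.11 with library size only, and 0.0804, 0.11 and 0.0804 with limma. DDX5 was at 0.0138 with library size only and 0.0186, 0.0187 and 0.0186 with limma. With 1 library left out, TP53I3 ranged from -0.0581 to 0.0552 and ZMAT3 from -0.0771 to 0.0261.

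The 22 other targets called lower became 14 with library size only and 12, 12 and 9 with limma, and the 8 regulators called lower became 4, 4, 4 and 3. With a 2-fold limit, the counts higher and lower were 1 and 1 of the 10 genes and 2 and 3 of the 43 other targets. They were 0 and 0 of the 22 regulators and 0 and 3 of the 22 partners, and 1 of the 28 cycle genes was lower. Of all tested genes, 4.65% were higher and 2.92% lower at this limit. With the limits of the study's methods (p under 0.01, 1.5-fold) the counts were 1 and 1, 3 and 6, 2 and 1, and 1 and 7, in the same order. Of the 28 cycle genes 16 were lower. At these limits 11.0% of all tested genes were higher and 8.03% lower. With 1 library left out, the counts of the 10 genes called higher ranged from 2 to 3 and of partners called higher from 2 to 4. Same-numbered libraries of the 2 groups did not deviate together (correlations 0.007, 0.041 and -0.056), so the replicate number was taken only as a name. With the replicate block 3 of the 10 genes rose and 3 fell, and CDKN1A was at -1.12.

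Among the 10 genes, reads per library were fewest for BBC3 (265 to 560), SESN1 (312 to 621) and FAS (414 to 709). Beyond them, TP63 and CCNE2 had fewer still in every library, and SESN3, ATM, PMAIP1, TNFRSF10C and ANKRA2 had fewer than 265 in some. The standard error was 0.161 for BBC3 and 0.132 for SESN1, but 0.0747 for FAS. The part of depth in these errors was not tested.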
